A study of Mus musculus with 2 samples.

Results

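The intergenic LSD1 peaks that lie just upstream of genes comprised 3143 of the 59175 peaks mapped in mouse primary brown adipocytes, or 5.31% (Wilson 95% interval 5.13% to 5.49%, counting error only). A peak was included when its midpoint lay in no annotated gene of any type, between 1 and 10 kb from the nearest protein-coding transcript start and on the upstream side of that start. LSD1 chromatin was immunoprecipitated with a homemade antibody of the submitters' laboratory (1 library), and an input library without antibody (1 library) was made alongside it. Both libraries came from cultured brown adipocytes, fat cells that burn fuel to make heat, of C57BL/6 N mice with the genotype label Control. The cells were at passages 2 to 3 and were fixed for 5 min on day 10 of differentiation. The differentiation medium held 20% serum, and its agents were 500 µM isobutylmethylxanthine, 1 nM T3, 125 nM indomethacin, 1 µM rosiglitazone, 1 µM dexamethasone and 850 nM insulin. The sources used here do not say how many animals or cultures entered the libraries. No values of the input library were analysed here, and the list holds no read counts, so the depth is unknown. With 1 immunoprecipitate, peaks are not replicates of a condition, and every comparison below is a description of 1 library without a p-value.

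LSD1, the product of Kdm1a, demethylates lysines of histone H3 with the help of a flavin cofactor. It sits beside histone deacetylases in the CoREST corepressor complex, and it is also found at enhancers, the distal elements that transcription factors use to control a promoter. Sequence upstream of a start holds many enhancers of the adjoining gene, but enhancers can also act on other genes. Here a peak is named after the nearest protein-coding start alone, and neither the gene it acts on nor the expression of any gene was measured.

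The 4 stretches of bound sequence that follow show the motif matches that the sequence results below turn on. Each is the 200 bp around the midpoint of the highest-scoring upstream peak with that motif, on the forward strand of GRCm38.p6, with the RefSeq sequence of that build. Capitals mark the exact match and all other bases are in lower case.
AP-1 match upstream of Serpinh1, chr7:99360376-99360575: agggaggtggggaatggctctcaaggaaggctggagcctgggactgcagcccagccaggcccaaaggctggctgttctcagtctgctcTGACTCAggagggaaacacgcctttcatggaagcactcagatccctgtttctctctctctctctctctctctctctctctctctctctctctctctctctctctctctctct
C/EBP match upstream of Mpg, chr11:32224965-32225164: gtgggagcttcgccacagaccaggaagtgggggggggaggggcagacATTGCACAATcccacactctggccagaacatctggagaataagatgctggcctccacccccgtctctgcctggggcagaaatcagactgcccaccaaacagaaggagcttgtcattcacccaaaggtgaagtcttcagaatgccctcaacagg
Glucocorticoid receptor match upstream of Fkbp5, chr17:28519028-28519227: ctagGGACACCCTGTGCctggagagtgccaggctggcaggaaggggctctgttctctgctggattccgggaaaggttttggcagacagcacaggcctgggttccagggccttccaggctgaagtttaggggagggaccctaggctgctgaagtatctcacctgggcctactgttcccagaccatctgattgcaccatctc
CTCF match upstream of Fam178b, chr1:36684197-36684396: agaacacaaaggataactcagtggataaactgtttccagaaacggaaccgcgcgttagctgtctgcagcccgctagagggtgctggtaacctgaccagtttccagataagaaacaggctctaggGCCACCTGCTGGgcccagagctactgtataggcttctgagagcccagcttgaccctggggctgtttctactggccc
The Serpinh1 peak scored 1149 with its midpoint 7237 bp from the start of that gene, which encodes a collagen chaperone. The Mpg peak scored 605 at 1446 bp from the start of a DNA glycosylase gene. The Fkbp5 peak scored 1161 at 1604 bp from the start of a well-known glucocorticoid-induced gene. The Fam178b peak scored 514 at 1114 bp from its start. The Mpg, Fkbp5 and Fam178b peaks had intervals that reached within 1 kb of a start, as did 8.18% of all upstream peaks.

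Each peak carries a score deposited by the authors. Its scale is unstated, so it served here to rank peaks of this list against each other. The median score of the upstream peaks was 104, with a middle range of 85.0 to 155, and scores ran between 50.3 and 3100. The median was 112 for the 652 intergenic peaks 1 to 10 kb downstream of the nearest start, 103 for the 6358 intergenic peaks 10 to 50 kb away, and 99.7 for the 8123 beyond 50 kb. Promoter peaks, whose midpoint lay within 1 kb of a start, had a median of 248 (13145 peaks), and all peaks had one of 111. In scores the upstream peaks thus lay beside the other intergenic classes and below promoter peaks. Of the upstream peaks, 151 (4.80%) belonged to the 10% of the list with the highest scores, against 33.0% of promoter peaks. The upstream peaks had a median width of 614 bp, against 933 bp for promoter peaks and 628 bp for all peaks.

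**Figure D1:**
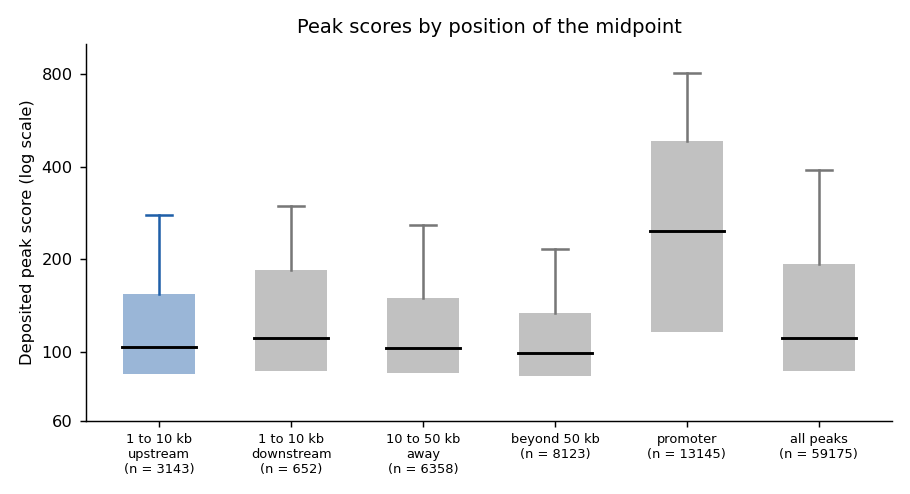
Deposited peak scores on a log axis for peaks 1 to 10 kb upstream of a start and for the other position classes. Boxes span the middle range, between the 25% and 75% points, black lines mark the median (104 upstream, 248 at promoters) and whiskers reach the score that 10% of peaks exceed.

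Upstream peaks were densest close to the start. All positions of the genome that satisfy the rule, 109 Mb in total, held 28.8 peaks per Mb (exact Poisson 95% interval 27.8 to 29.8, counting error only). Intergenic sequence 1 to 10 kb downstream held 24.2 peaks per Mb, intergenic sequence 10 to 50 kb away 19.8, and that beyond 50 kb 8.50. In the first step, 1 to 2 kb upstream, there were 42.8 peaks per Mb (39.5 to 46.2), in the next 31.5 (28.6 to 34.6), and at 9 to 10 kb 23.6 (20.7 to 26.8). The density at 1 to 2 kb was 1.81 times that at 9 to 10 kb (1.56 to 2.11), and the density at 2 to 3 kb was 1.34 times that at 9 to 10 kb (1.14 to 1.57). On the downstream side the ratio of 1 to 2 kb over 9 to 10 kb was 1.03 (0.633 to 1.61), from 26 and 82 peaks.

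The first kilobase of that profile includes wide peaks that extend into promoters. Of the 630 peaks with a midpoint 1 to 2 kb upstream, 256 (40.6%) had an interval that reached within 1 kb of a start. Without them the density in that step was 25.4 peaks per Mb, and its ratio to 9 to 10 kb fell to 1.08. Leaving them out also empties the sequence next to the 1 kb limit by construction, because the upstream peaks had a median half-width of 307 bp while all of that sequence stayed in the denominator. The steps beyond 2 kb were little touched, since 1 further upstream peak reached a promoter. The density upstream of starts exceeded that downstream 1.19 times over 1 to 10 kb (1.09 to 1.30) and 1.10 times over 2 to 10 kb (1.00 to 1.20). Scores did not follow the density: the median was 106 at 1 to 2 kb and 105 at 9 to 10 kb, and it stayed between 100 and 111 in the steps between them.

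**Figure D2:**
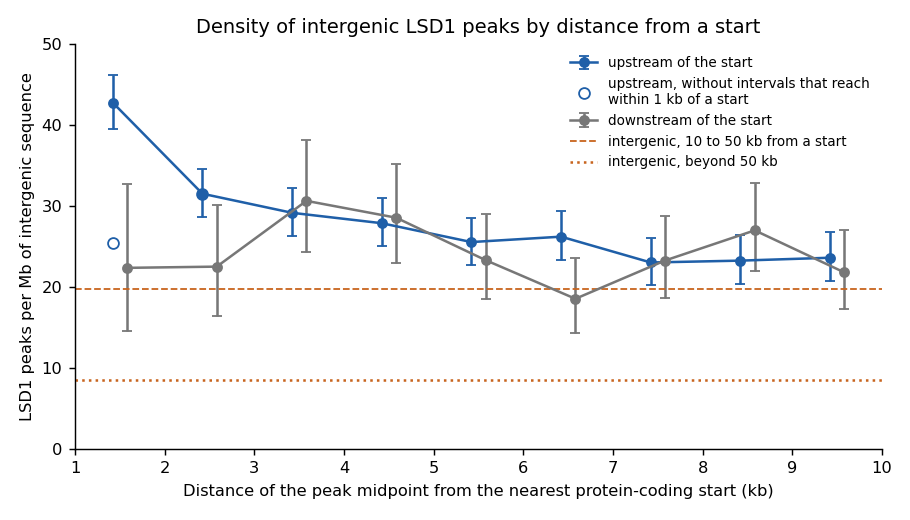
Intergenic LSD1 peaks per Mb of sequence satisfying the same rule, against distance of the midpoint from the nearest protein-coding start in 1 kb steps, upstream (blue) and downstream (grey), with exact Poisson 95% intervals. The upstream density declines between 42.8 per Mb at 1 to 2 kb and 23.6 at 9 to 10 kb, and the open circle at 25.4 is the first step without intervals that reach a promoter.

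At the limits of the rule, the 375 upstream peaks at 1 to 1.5 kb had a median score of 105, and the 488 intergenic upstream peaks just outside, at 0.5 to 1 kb, had one of 129. At the far end, the 99 upstream peaks at 9.5 to 10 kb had a median of 98.2, and the 117 just outside, at 10 to 10.5 kb, had one of 108. At both limits the peaks just outside had the higher median.

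Other peaks often stood near the upstream peaks. Of the upstream peaks, 884 (28.1%) had another peak within 1 kb, against 25.3% of intergenic peaks 1 to 10 kb downstream, 33.6% of promoter peaks, 15.8% of intergenic peaks 10 to 50 kb away and 22.4% of all peaks. For 1549 (49.3%) the nearest other peak was a promoter peak. There were 1362 (43.3%, 41.6% to 45.1%) between head-to-head protein-coding genes, and 42.2% of the sequence satisfying the rule lay in such intervals, so their share was that of the sequence. Midpoints within 1 kb of the start of a gene that is not protein-coding numbered 109. The types most often found among these starts were processed pseudogenes, with 33 peaks, and lincRNAs, with 31. This sequence held 41.9 peaks per Mb (34.4 to 50.6), against 28.4 per Mb in the rest of the sequence, and the median score was 126, against 104 for the other upstream peaks. RefSeq placed a gene over the midpoint of 580 upstream peaks (18.5%), so intergenic status rests on the GENCODE M21 annotation.

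A small group of upstream peaks covered transfer RNA genes, which RNA polymerase III transcribes. There were 30 such peaks (0.955%, 0.669% to 1.36%), against 1.07% of intergenic peaks 1 to 10 kb downstream, 0.550% of those 10 to 50 kb away and 0.194% of all peaks. Their median score was 264, against 104 for the other upstream peaks. Of the 76 RefSeq tRNA genes within the sequence satisfying the rule, a peak of any class overlapped 47 (61.8%, 50.6% to 71.9%). The summed width of the upstream peaks alone was 2.09% of that sequence. The first value counts genes with any overlap and the second counts bases of upstream peaks, so they are not like for like. The highest of the 30 upstream peaks over tRNA genes lay near Fcgr3, at chr1:171070272-171074899, with a score of 1695. Others stood near Rnase4 (950), Hes7 (902), Trim27 (829) and Aurkb (650). tRNA genes occur in near-identical copies. The labels do not say how reads that map to several copies were treated.

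Upstream peaks were scarce on the sex chromosomes. Chromosome X held 11 of them (0.350%, 0.196% to 0.626%), against 5.50% of the sequence satisfying the rule, and chromosome Y held 1, against 1.38% of that sequence. Among all peaks of the list the share on chromosome X was 0.461%. The scarcity was therefore shared with the rest of the list, and its cause was not tested.

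The sequence at the centre of the upstream peaks was richer in G and C than its surroundings and poorer than promoters. The 200 bp around the midpoint had a median GC content of 49.0%, with a middle range of 44.0% to 53.5%. The median was 43.0% over 531091 peak-free tiles of 200 bp, which are all tiles satisfying the rule that no peak touched. It was 62.5% for promoter peaks. Centres that were CpG-rich, meaning at least 50% GC and an observed over expected CpG ratio of at least 0.6, numbered 197 (6.27%). The share was 0.560% of peak-free tiles and 62.0% of promoter peaks. It was 7.52% of intergenic peaks 1 to 10 kb downstream and 3.88% of those 10 to 50 kb away. Among peaks in genes at 1 to 10 kb it was 6.86%. The CpG-rich upstream peaks had a median score of 209, against 102 for the other upstream peaks. More than 50% of the centre was repeat sequence, as soft-masked in the assembly, in 433 upstream peaks (13.8%), against 35.6% of peak-free tiles and 7.56% of all peaks. The repeat share was 12.4% downstream, 10.8% in intergenic peaks 10 to 50 kb away and 8.77% in genes at 1 to 10 kb.

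Among 21 transcription factor motifs, matches to AP-1, CTCF and C/EBP stood out against peak-free upstream sequence. AP-1, the dimer of Fos and Jun proteins, recognises TGACTCA, whose reverse complement is TGAGTCA. It matched in 223 upstream peaks (7.10%, 6.25% to 8.05%), against 3.28% of peak-free tiles and 3.37% once the tiles were weighted to the GC content and CpG count of the upstream peaks. The share among all peaks was 6.53%, that in intergenic peaks 10 to 50 kb away 8.70%, and that in promoter peaks 2.32%. Upstream peaks thus carried AP-1 matches more often than the sequence around them and not more often than more distant intergenic peaks. Upstream peaks with the match had a median score of 117, against 103 for those without it.

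CTCF, a zinc finger protein that organises chromatin loops, matched in 46 upstream peaks (1.46%, 1.10% to 1.95%), against 0.134% of peak-free tiles and 0.225% of weighted tiles. CTCF matched in 1.99% of intergenic peaks 1 to 10 kb downstream, 0.944% at 10 to 50 kb and 0.517% beyond 50 kb. The motif of C/EBP proteins, regulators of adipocyte differentiation, matched in 18 upstream peaks (0.573%, 0.363% to 0.904%), against 0.180% of tiles and 0.136% of weighted tiles. In the same intergenic classes, in that order, C/EBP matched in 0%, 0.456% and 0.480%. The composite C/EBP-ATF site TGATGCAA matched in 0.955% of upstream peaks, against 0.498% of weighted tiles and 1.07%, 0.959% and 1.19% of those classes. The glucocorticoid receptor motif, GNACA and TGTNC separated by 3 bases, matched in 21 upstream peaks (0.668%, 0.437% to 1.02%), against 0.312% of weighted tiles. Its shares in those classes were 0.460%, 0.488% and 0.345%. Sites for the oestrogen-related receptors (TCAAGGTCA), nuclear receptors that act on mitochondrial genes, matched in 0.891% of upstream peaks, against 0.573% of weighted tiles. Their shares in those classes were 1.07%, 0.519% and 0.382%. TEAD sites (ACATTCC), read by the effectors of the Hippo pathway, matched in 3.75% of upstream peaks, against 2.60% of weighted tiles. In those classes they matched in 4.45%, 4.03% and 4.58%. Among intergenic classes, TEAD and C/EBP-ATF shares were thus lowest upstream, and CTCF and oestrogen-related receptor shares highest downstream. The upstream interval of C/EBP-ATF (0.669% to 1.36%) held the shares of all those classes. That of TEAD (3.14% to 4.48%) held the shares downstream and at 10 to 50 kb. The upstream interval of the oestrogen-related receptors (0.617% to 1.28%) held the downstream share, and that of CTCF ended just below it. C/EBP and glucocorticoid receptor shares were highest upstream, with intervals that held the share at 10 to 50 kb.

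Most other motifs did not stand apart once composition was taken into account, or stood below it. The SP-KLF box GGGCGGG matched in 3.91% of upstream peaks, against 0.975% of tiles and 3.50% of weighted tiles. YY1 (AAGATGGC) matched in 1.08% (0.775% to 1.51%), against 2.89% of weighted tiles, and 1.68% of tiles weighted also for repeat status. EBF, TCCC and GGGA separated by 2 bases, matched in 0.318% (0.173% to 0.585%), against 0.585% of weighted tiles, just past the upper bound. The EBF shares of the other intergenic classes lay further above that interval. They were 0.920% downstream, 0.881% at 10 to 50 kb and 0.665% beyond 50 kb. NRF1 matched in 0.191% (0.0875% to 0.416%), against 0.0850% of weighted tiles and 0.0939% of tiles weighted also for repeat status, so its interval holds the value with repeat status and not the other. RUNX (AACCACA) matched in 5.47% (4.73% to 6.32%), against 4.97% of weighted tiles and 4.52% of tiles weighted also for repeat status. In each weighting 8 motifs had their interval above the tile share and 2, YY1 and EBF, below it. The sets of 8 differed: NRF1 was among them only without repeat status, and RUNX only with it. The remaining motifs, whose intervals held the weighted share, were CRE (TGACGTCA), NFI (TTGGC and GCCAA separated by 5 bases), the PPAR-RXR DR1 element, FOX (TGTTTAC), ETS (CCGGAAGT), the USF E-box CACGTG, STAT (TTCCNGGAA), SRF and EGR (GCGTGGGCG). The E-box matched in 3.47% of upstream peaks (2.88% to 4.17%), against 2.30% downstream, 2.83% at 10 to 50 kb and 1.99% beyond 50 kb. Both strands were searched, and of all pairs of motifs only the E-box can lie whole within another, across the spacer of NFI. At least 1 of the 21 motifs matched in 952 upstream peaks (30.3%). An exact match is a description of the letters and does not show that the factor binds there.

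**Figure D3:**
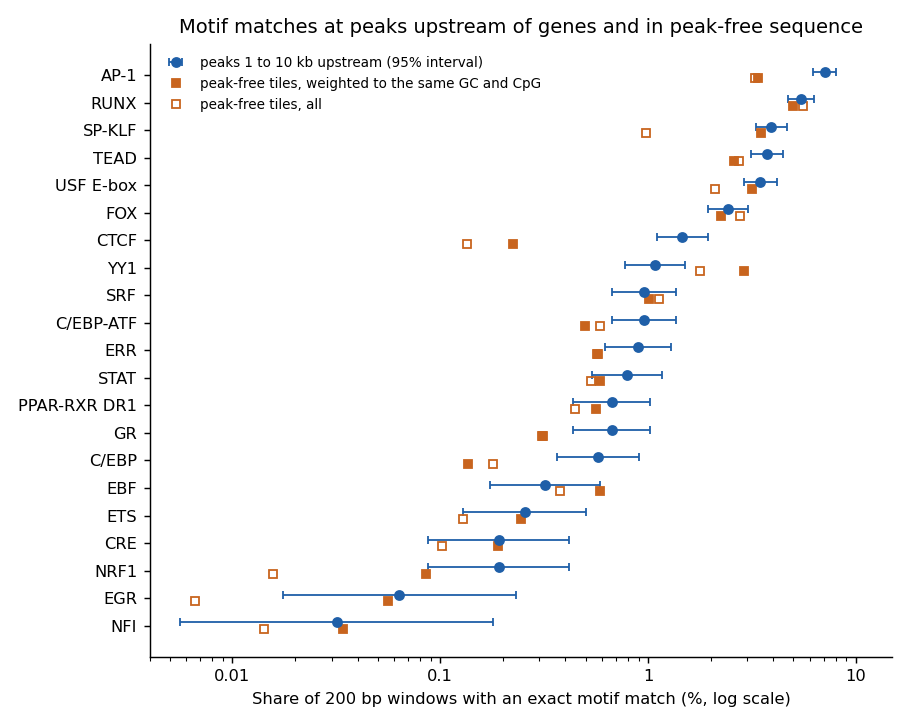
Share of 200 bp windows with an exact match to each of 21 motifs, on a log axis, in the 3143 upstream peaks (blue, Wilson 95% interval), in peak-free tiles weighted to the same GC and CpG content (filled orange) and in all peak-free tiles (open orange). CTCF shows the widest gap (1.46% against 0.225%), AP-1 has the highest share (7.10% against 3.37%), and YY1 lies below its weighted tiles.

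The upstream peaks were assigned to 2555 protein-coding genes, or 11.7% of 21853. Among the 15192 genes with at least 1 kb of sequence that satisfies the rule, 16.6% had an upstream peak. Most of these genes had 1 upstream peak (2099), while 348 had 2, 87 had 3, 19 had 4, and 1 gene each had 5 and 6. The promoter of a gene with an upstream peak was itself bound more often. A peak overlapped the region within 1 kb of a start in 1934 of the 2555 genes (75.7%, 74.0% to 77.3%), against 55.8% of all protein-coding genes, and against 46.1% of genes without an upstream peak that had at least 1 kb of such sequence. When a peak that was itself an upstream peak was not counted as a promoter peak, the share was 73.0% (71.3% to 74.7%).

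The difference was wide at promoters of low and middle CpG content and narrow at CpG-rich ones. Genes were split into 3 equal classes by the highest CpG ratio among their promoters. In the low class, 23.8% (20.2% to 27.8%) of the 480 genes with an upstream peak had a promoter peak other than the upstream peak, against 6.77% (6.12% to 7.48%) of those without one and with 1 kb of sequence. In the middle class the shares of genes with and without an upstream peak were 76.1% (73.3% to 78.7%) and 60.9% (59.3% to 62.4%), and in the high class 91.2% (89.4% to 92.7%) and 88.3% (87.2% to 89.3%). Where a gene had both, the promoter peak usually scored higher: the median of the highest upstream score over all such genes was 110, against 351 for the promoter. The upstream score was above the promoter score in 360 of 1866 genes (19.3%). There were 621 genes (24.3%) with an upstream peak and no promoter peak, and their highest upstream scores had a median of 104.

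The 10 highest-scoring upstream peaks included a histone gene, cell cycle and transcription factor genes, and a tRNA cluster. The highest lay by Hist1h3e, a replication-dependent histone H3 gene, at chr13:23560552-23566984. It was 6433 bp wide, reached into the promoter and had a score of 3100, a value that 33 peaks of the list share. The second was the tRNA peak near Fcgr3. The third lay by Ccnd1, the gene of cyclin D1, at chr7:144940940-144944040, with a score of 1529, against 346 for its promoter peak, and its midpoint was 2621 bp from the start. Next came Wdr81 (1492), whose peak stood 704 bp from the start of Mir22hg, the host transcript of a microRNA, and whose own promoter peak scored 84.0.

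Vstm2l (1459) and Cgref1 (1367) followed, and the Cgref1 peak stood 109 bp from the start of Abhd1, annotated as a processed transcript. Zfp423, a zinc finger factor of preadipocyte commitment, had a peak of 1272 at 1794 bp, which reached into the promoter, where the strongest other peak scored 136. Bicdl1 (1259), Irf2bp2 (1192) and Fkbp5 (1161) closed this group, and all 3 peaks reached within 1 kb of a start. Of the 10 highest-scoring peaks, 6 reached into a promoter in this way, against 257 (8.18%) of all upstream peaks.

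Csf1, the gene of macrophage colony-stimulating factor, which adipose cells secrete, had 6 upstream peaks, the most of any gene. RefSeq placed a gene over the midpoint of each of these peaks, so their intergenic status rests on GENCODE M21. They lay between 2222 and 9412 bp from the start, and their scores, with growing distance, were 105, 128, 120, 79.2, 201 and 333. The promoter peak of Csf1 scored 819, above each of them. Hist1h1c, a linker histone gene in the histone cluster on chromosome 13, had 5, with scores between 84.4 and 368. Irf2bp2, a transcriptional corepressor gene, had 4, and beyond the wide peak at its promoter the other 3 scored 76.3, 98.5 and 332. Cirbp, which encodes a cold-inducible RNA-binding protein, had 4 at 2137 to 6856 bp, with scores of 188, 147, 945 and 299 in order of distance. Cdc42ep1, an effector gene of the Cdc42 GTPase, had 4, with scores between 237 and 498. At several of these genes neighbouring peaks stood under 400 bp apart, and whether such peaks are parts of 1 broad region was not tested.

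Among genes without a promoter peak, the highest-scoring upstream peaks lay by Cgref1 (1367), Lin28a (1041, 2051 bp), Elane (716, 2120 bp), Cabp7 (681, 3694 bp) and Aurkb (650, 5270 bp). Lin28a encodes an RNA-binding protein that blocks let-7 maturation, Elane neutrophil elastase, and Aurkb a mitotic kinase. The Aurkb peak covered a tRNA gene. The nearest other peak was 19278 bp from the Lin28a peak and 38011 bp from the Cabp7 peak, so both stood apart from other binding.

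Of 9 key genes of brown fat and of LSD1 function, 2 had an upstream peak, and of the 7 with at least 1 kb of sequence 2 did (28.6%), against 16.6% of all such genes. Pparg, the nuclear receptor at the centre of adipogenesis and target of rosiglitazone, had 1 at chr6:115354504-115355063, with a score of 126 at 6168 bp, against 401 at its promoter. Cebpa, its partner factor, had 1 at chr7:35116793-35117353, with a score of 85.8 at 2220 bp, against 1619 at its promoter. Kdm1a itself, Ucp1, Nrf1, Ppargc1a and Adipoq had 0, with 2857 bp of eligible sequence at Kdm1a, 8399 bp at Adipoq and 9000 bp at the other genes. Ucp1, whose protein uncouples respiration and whose known enhancer lies within this upstream stretch, also had no promoter peak. Prdm16 and Hsd11b1 had 0, but only 410 bp and 0 bp of sequence satisfied the rule there, so little or no sequence there could hold such a peak.

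Gene lists were compared by the count of genes with an upstream peak, beside the 11.7% of all protein-coding genes. Over the 20 lists, 120 of 463 distinct genes had one (25.9%). The interval lay above 11.7% for 11 lists. Among genes with at least 1 kb of sequence it lay above the matching 16.6% for 9 lists. By density, 6 lists had an interval above the 28.8 peaks per Mb of all genes. As a further background, among the 4145 genes with at least 1 kb of sequence, a promoter peak and a promoter in the high CpG class, 25.4% had an upstream peak. Among the list genes of the same kind, the interval lay above that share for 6 lists. They were immediate-early genes (11 of 12), beta-adrenergic and cAMP signalling (9 of 14), adipogenic transcription factors (8 of 13), insulin signalling (6 of 11), fatty acid oxidation (3 of 4) and endothelial markers (2 of 2), the last 2 resting on very few genes. For insulin signalling, fatty acid oxidation and endothelial markers the density interval held the 28.8 peaks per Mb of all genes.

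Immediate-early genes, which are switched on within minutes of a stimulus, were the list with the highest share. Of its 24 genes, 17 had an upstream peak (70.8%, 50.8% to 85.1%), and of its 20 genes with at least 1 kb of sequence, 17 did (85.0%), against 16.6% of all such genes. Its density was 150 peaks per Mb (94.97 to 225), against 28.8 for all genes. All 24 had a promoter peak, with a median score of 775. Of the 12 with a promoter in the high CpG class and 1 kb of sequence, 11 had an upstream peak, beside the 25.4% above. The 7 without one were Btg2, Egr1 and Ier5, which had at least 8617 bp of sequence, and Csrnp1, Dusp1, Jun and Zfp36, which had 0 bp.

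The 23 upstream peaks of these genes scored between 58.5 and 631, and 2 of them, at Klf4 and Junb, reached into a promoter. Fos, the AP-1 subunit, had peaks of 631 at 1643 bp and 93.8 at 6241 bp, against 696 at its promoter. Ier3, an anti-apoptotic stress response gene, had a peak of 538 at 8112 bp, against 651 at its promoter. Klf4, a zinc finger factor induced early in adipogenesis, had peaks of 500 at 1739 bp and 106 at 8773 bp, against 1329 at its promoter. Nr4a1, an orphan nuclear receptor, was the 1 gene of the list whose upstream peak scored higher than its promoter peak, with 437 at 7806 bp, against 91.4. Egr3, a zinc finger factor, had peaks of 360 and 224, at 2470 and 9543 bp. The AP-1 subunit genes Junb, Fosl1, Jund, Fosb and Fosl2 had upstream peaks whose highest scores were 275, 258, 170, 83.8 and 71.7. The AP-1 match itself lay in 3 of the 23 peaks, by Atf3, Fosb and Egr2, beside 7.10% of all upstream peaks. With so few peaks no difference can be read from these values.

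**Figure D4:**
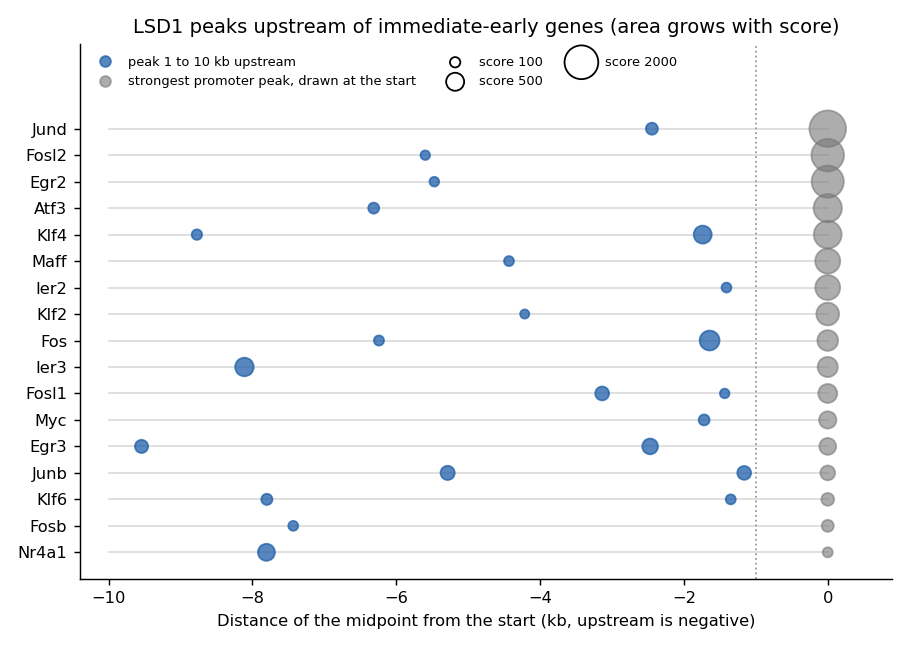
Upstream LSD1 peaks (blue) of the 17 immediate-early genes that had one, by distance of the midpoint from the start in kb, with the strongest promoter peak (grey) drawn at 0 and the circle area growing with the deposited score. Genes run down the page by promoter score, and only at Nr4a1 is the upstream circle larger than the promoter circle.

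Adipogenic transcription factors had an upstream peak at 10 of 25 genes, at 88.9 peaks per Mb (47.3 to 152). The highest were Zfp423 (1272), Klf4 (500) and Srebf1 (162), the last a regulator of lipid synthesis. Preadipocyte and fibroblast markers had one at 10 of 21 (47.6%, 28.3% to 67.6%), led by Zeb2 (278), Dcn (200) and Prrx1 (176), and 16 of the 21 had a promoter peak. Extracellular matrix genes had one at 10 of 28 (35.7%). Col1a1, the major fibrillar collagen gene, had its highest at 588, against 193 at its promoter, and Col6a1 had one of 553 with no promoter peak. Beta-adrenergic and cAMP genes had one at 10 of 26 (38.5%), led by the nuclear receptors Nr4a3 (714) and Nr4a1 (437) and by Prkaca (222), the catalytic subunit of protein kinase A.

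Glucocorticoid genes had an upstream peak at 8 of 24 (33.3%). Fkbp5 (1161) led them, followed by Pck1 (154), the gluconeogenic enzyme gene with no promoter peak, and Cdkn1a (153). Circadian clock genes had one at 6 of 20, with Nr1d1 (385), Bhlhe41 (311) and Per2 (189) highest, and 4 of 20 when peaks that reach a promoter were left out. Insulin signalling had 7 of 26, and Igf1r (453), the receptor of insulin-like growth factor, and Socs3 (317) were highest. Glycolysis and glucose uptake had 6 of 24. The glucose transporter gene Slc2a1 led it with 787, against 270 at its promoter, followed by Gpi1 (673) and Ldha (289). The Gpi1 peak stood 59 bp from the start of Gm12758, annotated as antisense. RefSeq placed a gene over the midpoints of the Slc2a1 and Gpi1 peaks. The same held for other peaks named here, among them the highest by Zfp423, Irf2bp2, Cabp7, Col1a1, Klf4 and Nr1d1. It also held for those by Gdf15, Nefh, Esrrg and Cox5a.

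Lists of the metabolic functions of brown fat had shares between 9.38% and 22.9%, beside 11.7% of all genes. The thermogenic programme had 6 of 30 (20.0%, 9.51% to 37.3%), with Vegfa (214), Esrrg (187) and Ebf3 (117) highest. Lipid storage, synthesis and lipolysis had 8 of 35 (22.9%, 12.1% to 39.0%), an interval above the share of all genes, led by Gpd1 (389), the glycerol phosphate dehydrogenase gene, with no promoter peak, Scd2 (222) and Fitm2 (139). Adipokines had 4 of 20, among them Gdf15 (359) and Retn (118). Fatty acid oxidation had 4 of 24, with Cpt1a (139), Cpt2 (102) and Ppara (77.9). The nuclear-encoded respiratory chain had 3 of 32 (9.38%, 3.24% to 24.2%), namely Atp5g1 (212), Sdhb (125) and Cox5a (111), and 27 of the 32 had a promoter peak. Only 15 of these 32 genes had at least 1 kb of sequence satisfying the rule. Of those 15, 3 had an upstream peak (20.0%, 7.05% to 45.2%), beside 16.6% of all such genes. LSD1 and its partner proteins had 2 of 25, Rcor2 (136) and Chd4 (78.7), with 23 promoter peaks.

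Among markers of other cell types, the interval held 11.7% for macrophage, muscle, neuronal and other-organ genes and lay above it for endothelial markers. Macrophage and leukocyte markers had an upstream peak at 2 of 20, Cd4 (169) and Tyrobp (98.8), and a promoter peak at 2 of 20. Skeletal muscle genes had one at 2 of 20, Myh2 (229) and Pax3 (95.3). Genes of other organs had 1 of 22, Scgb1a1 (77.9). Endothelial markers had 5 of 18 (27.8%, 12.5% to 50.9%), led by Egfl7 (231), Flt1 (128) and Vwf (120). Of the 15 endothelial genes with at least 1 kb of sequence, 5 had one (33.3%, 15.2% to 58.3%). That interval held the 16.6% of all such genes. Neuronal genes had 5 of 22, led by Nefh (429), Map2 (189) and Th (134). Occupancy does not measure expression, so these counts say nothing on which cells the culture held.

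**Figure D5:**
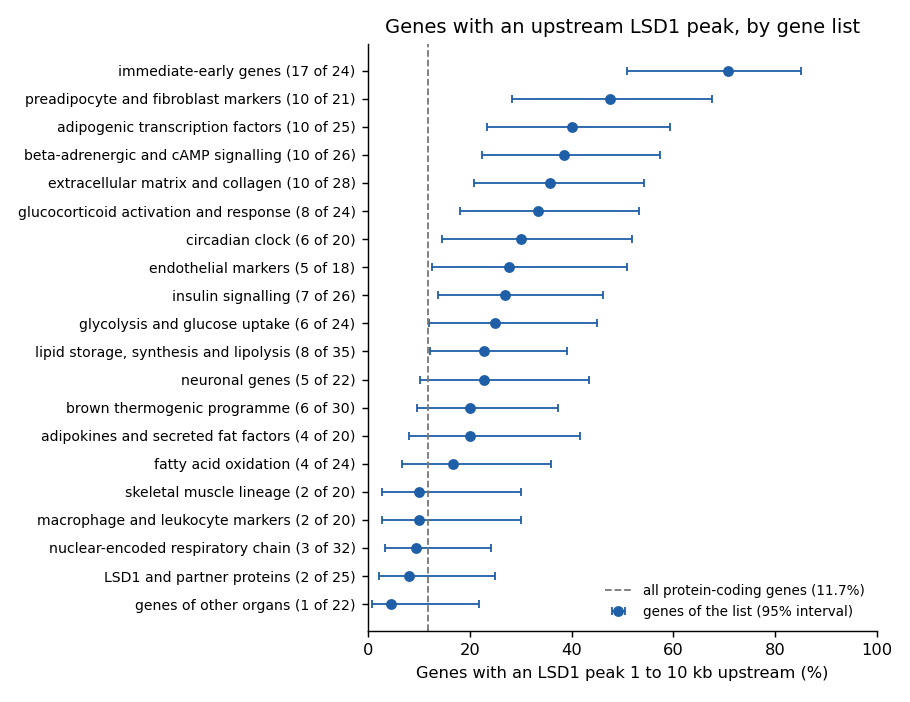
Share of the genes of each list with an LSD1 peak 1 to 10 kb upstream, with Wilson 95% intervals and, in parentheses, the count of genes with a peak and the size of the list. The dashed line marks the 11.7% of all protein-coding genes, immediate-early genes lie highest at 70.8% and genes of other organs lowest at 4.55%.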

How the data were processed

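LSD1 immunoprecipitate and input DNA were sequenced from 1 library each, grouped by the antibody label. Per the labels' protocols, reads were mapped to mm10 with Bowtie2, and the submitters' processing notes name MACS 1.41. The labels used here do not state how reads were filtered, at which threshold peaks were called or whether the input served as control. The score of each peak is the authors' value as deposited, of unstated scale. It was used within this list alone. No depth was available, so intervals cover counting error of peaks and genes.

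Starts and genes came from GENCODE M21 and sequence, soft-masked repeats and tRNA genes from RefSeq GRCm38.p6, the same chromosomes as mm10. Peaks of chromosomes 1 to 19, X and Y entered, with 0 beyond a chromosome end. Coordinates count from 1. Densities used every position that satisfies the rule, motifs exact matches in 200 bp around the midpoint, and tile shares were weighted by GC in steps of 2% and by CpG count. Genes are assigned by the nearest start. No test was possible with 1 library, so Wilson and exact Poisson 95% intervals are given. Python 3.11.15, numpy 2.4.6, pandas 2.3.3, SciPy 1.17.1, pysam 0.24.0 and matplotlib 3.10.9 were used, and the scripts were tested on simulated data.

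Named were the 10 highest-scoring peaks, the 5 genes with most peaks, the 5 highest-scoring peaks without a promoter peak, the 3 highest genes of each list (some are not reported here), 9 key genes and 1 example sequence for each of 7 motifs, of which 4 are printed. All immediate-early genes, and tRNA peaks such as those by Rnase4 and Hes7, were named after their values were seen. The peaks and all gene lists were chosen with earlier results of these data known. Alternatives were other distance limits, start types, gene definitions, score thresholds, promoter widths, sequence windows and promoter-reaching intervals.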

Additional observations from a re-analysis of the deposited data

How the results depend on the processing

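No paired analysis was possible because there is 1 LSD1 library. The share of upstream peaks among all peaks, 5.31%, was 5.11% with the whole peak outside genes, 7.59% with starts of all transcript types, 6.25% with protein-coding genes alone excluded, 4.25% at 2 to 10 kb, 3.07% at 1 to 5 kb, 4.72% among peaks at or above the list median score, and 4.88% without intervals reaching a promoter. The density ratio of 1 to 2 kb over 9 to 10 kb, 1.81, was 1.86 for peaks at or above the median score and 1.76 with all starts, but 1.08 without intervals reaching a promoter, and 1.34 when the first step was 2 to 3 kb. The last 2 alternatives were chosen after seeing the data, as were leaving out promoter-reaching intervals elsewhere, the weighting of tiles by GC, CpG count and repeats, the backgrounds by sequence length, promoter peak and CpG class, and the exclusion of upstream peaks from promoter peaks. The promoter share of genes with an upstream peak, 75.7%, against 55.8% of all genes, was 71.5% against 53.7% for a promoter of 500 bp, 83.2% against 59.1% for 2.5 kb, 71.5% against 54.1% with the midpoint inside the promoter, 69.0% against 47.3% at or above the median score, and 73.0% against 55.5% with upstream peaks not counted as promoter peaks. The AP-1 share grew with the window, at 3.28% for 100 bp, 13.6% for 400 bp and 19.8% for the whole peak, and was 8.38% at or above the median score. Median GC was 48.2% for 400 bp and 47.8% for the whole peak. The share of listed genes with an upstream peak, 25.9% against 11.7% of all genes, was 14.5% against 5.64% at or above the median score, 20.5% against 9.61% at 2 to 10 kb, 16.8% against 7.43% at 1 to 5 kb, 35.0% against 16.6% with at least 1 kb of sequence, and 47.6% against 25.4% with, in addition, a promoter peak and a promoter in the high CpG class. The count of single lists moved by over 1.5 times for 13 lists at or above the median score, 11 at 1 to 5 kb and 4 at 2 to 10 kb, and for 0 without promoter-reaching intervals. Immediate-early genes had 11, 11, 15 and 17 of 24 in these settings. The median score of upstream peaks kept within 103 to 104 under every alternative tried. Without replicates, how far any of these values varies between cultures cannot be said, and without read counts neither can the effect of depth on which weak peaks were called.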
